A study of Mus musculus with 37 samples.

Results

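The 10 genes described here, Adgre1, Cd14, C1qa, C1qb, C1qc, Ctss, Laptm5, Pf4, Aif1 and Gpnmb, are genes of macrophages and related cells that were found at a high level in cultures of mouse tail tip fibroblasts used as nuclear donors. They were chosen by gene symbol in the array annotation, and the choice was made with their level in the fibroblasts known. All 10 had a probe on both versions of a single-colour Illumina bead array, with 14 of 24613 probes on version 1 and 14 of 25697 probes on version 2. The annotation gave symbols to 12097 and 12198 genes in all.

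Macrophages are phagocytes of the tissues that engulf dead cells and debris, digest them in lysosomes and signal to other immune cells. They are present in skin and can be carried into primary cultures of dermal cells. Their transcription depends on the factor PU.1, encoded by Spi1, and several of the genes below are used as macrophage markers. A cleaving mouse embryo has no macrophages, but RNA stored in the oocyte is inherited by the zygote and is cleared in the first cell cycles while the embryonic genome is switched on.

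The study replaced the genome of a mouse oocyte or embryo cell during division by that of a donor cell, a procedure called nuclear transfer (NT), and measured RNA in the cell cycle that followed. Version 1 held 3 samples of tail tip fibroblasts from agouti 129xB6 F1 mice. It also held 2 anaphase NT embryo samples and 2 prometaphase NT embryo samples, in which interphase tail tip cells were transferred into zygotes at those phases of mitosis and which were collected 22 to 24 h after transfer (stated for 1 of each 2). Their controls were 2 samples of normal 2-cell embryos (1 with a stated time, about 22 to 24 h past the first mitosis), 2 samples of embryos kept from cleaving until 2-cell timing, and the recipient stages, 3 samples of M-phase zygotes and 3 of interphase zygotes. Version 2 held 3 arrays of blastomere NT embryos taken 14 h after transfer, for which the design text names skin fibroblasts of the tail tip as donors, and 2 samples of oocyte NT embryos, made with MII oocytes and interphase tail tip fibroblasts and taken 2 d after transfer. The controls on that version were 2 samples of 4-cell embryos taken 14 h after release from a mitotic block and 2 samples of MII oocytes. No fibroblast array was run on version 2, and the 2 versions were normalized separately, so no level is compared across them. Embryos were cultured in KSOM. The strain of the embryos, and how many were pooled in a sample, were not given in the sources used here.

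All levels are normalized log2 intensities, and a probe counts as detected on an array when its deposited detection p was below 0.05. The lowest detected signal was 4.47 to 6.53 log2 on the arrays of version 1 and 5.78 to 6.58 log2 on those of version 2. Between 18.8% and 45.7% of probes were detected per array on version 1, and between 33.8% and 44.0% on version 2. The fibroblast samples carried the fibroblast markers Dcn, Acta2, Thy1 and Serpinf1 on all 3 arrays, and the embryo genes Pou5f1 and Dppa3 were detected on none of them. Anaphase NT samples 15 and 19 stood further apart than other replicates of version 1 (r = 0.853 over all probes). Blastomere NT arrays 1 and 3 differed on bright probes about as little as repeat hybridizations of 1 sample (r = 0.997, against 0.993 to 0.995 for repeats), and they were therefore averaged and counted as 1 sample, although over all probes their differences had a larger SD (0.248, against 0.119 to 0.150 for repeats). The labels call many samples biological duplicates without naming separate animals, so a p-value here measures only how far these samples spread, which may be technical.

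In the donor fibroblasts all 10 genes were detected on all 3 arrays, and each stood above the 2-cell controls without overlap. This is the property for which they were chosen, so it is described and not tested. Of all 8158 genes tested on version 1, 37.3% had every fibroblast sample above every 2-cell control, and 11.9% were at least 2 log2 higher. The median difference of the 10 genes was 5.71 log2, or 5.31 log2 with the genes undetected in 2-cell controls at their lower bound, against -0.0685 log2 for all genes. A fold written as "at least" is measured against the lowest detected signal, because the gene was not detected in the lower group.

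Adgre1 encodes F4/80, an adhesion receptor of the macrophage surface. Its level was 11.59, 11.53 and 11.06 log2 in the 3 fibroblast samples, against 4.30 and 4.31 log2 in the 2-cell controls, where it was not detected (at least 105-fold higher). Cd14, the co-receptor for bacterial lipopolysaccharide, had 7.78, 8.43 and 8.57 log2 in fibroblasts, against 4.30 and 4.26 log2, not detected, in 2-cell controls (at least 12-fold higher). RNA of both surface receptors was thus detected in each fibroblast sample.

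C1qa, C1qb and C1qc encode the chains of C1q, which starts the classical complement pathway, and are neighbours on mouse chromosome 4. C1qa had 9.27, 9.58 and 9.53 log2 in fibroblasts and was at least 27.4-fold above the 2-cell controls. C1qb had 10.67, 10.90 and 10.66 log2 and was at least 66.7-fold above them, and C1qc had 10.50, 10.45 and 10.39 log2 and was at least 54.3-fold above them. The chains varied by 0.304, 0.232 and 0.109 log2 between the highest and the lowest fibroblast sample.

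Ctss encodes cathepsin S, a lysosomal protease of antigen-presenting cells, and had 9.88, 9.91 and 8.82 log2 in fibroblasts, with the widest range of the 10 genes (1.08 log2, at least 28.9-fold above the 2-cell controls). Laptm5, a lysosomal membrane protein of haematopoietic cells, had 12.29, 12.28 and 12.67 log2 in fibroblasts, against 4.23 and 4.22 log2 in 2-cell controls, where it was not detected (at least 212-fold higher). Pf4 encodes the chemokine platelet factor 4, made by megakaryocytes and also by macrophages, and had 10.80, 10.85 and 10.64 log2 in fibroblasts (at least 67.5-fold higher). Fibroblast sample 8 was the lowest of the 3 for Ctss and Adgre1 and the highest for Laptm5 and Cd14, so the samples did not keep 1 order across the genes.

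Aif1, which encodes the actin-binding protein Iba1, had 7.22, 7.33 and 6.59 log2 in fibroblasts, against 4.85 and 4.32 log2 in 2-cell controls, a difference of 2.46 log2. Gpnmb encodes a transmembrane glycoprotein of macrophages, osteoclasts and melanocytes, and had 8.88, 8.78 and 8.90 log2 in fibroblasts, against 6.85 and 5.37 log2 in 2-cell controls, a difference of 2.75 log2. Gpnmb was the only one of the 10 detected in both 2-cell control samples, and Aif1 was detected in control 22.

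**Figure D1:**
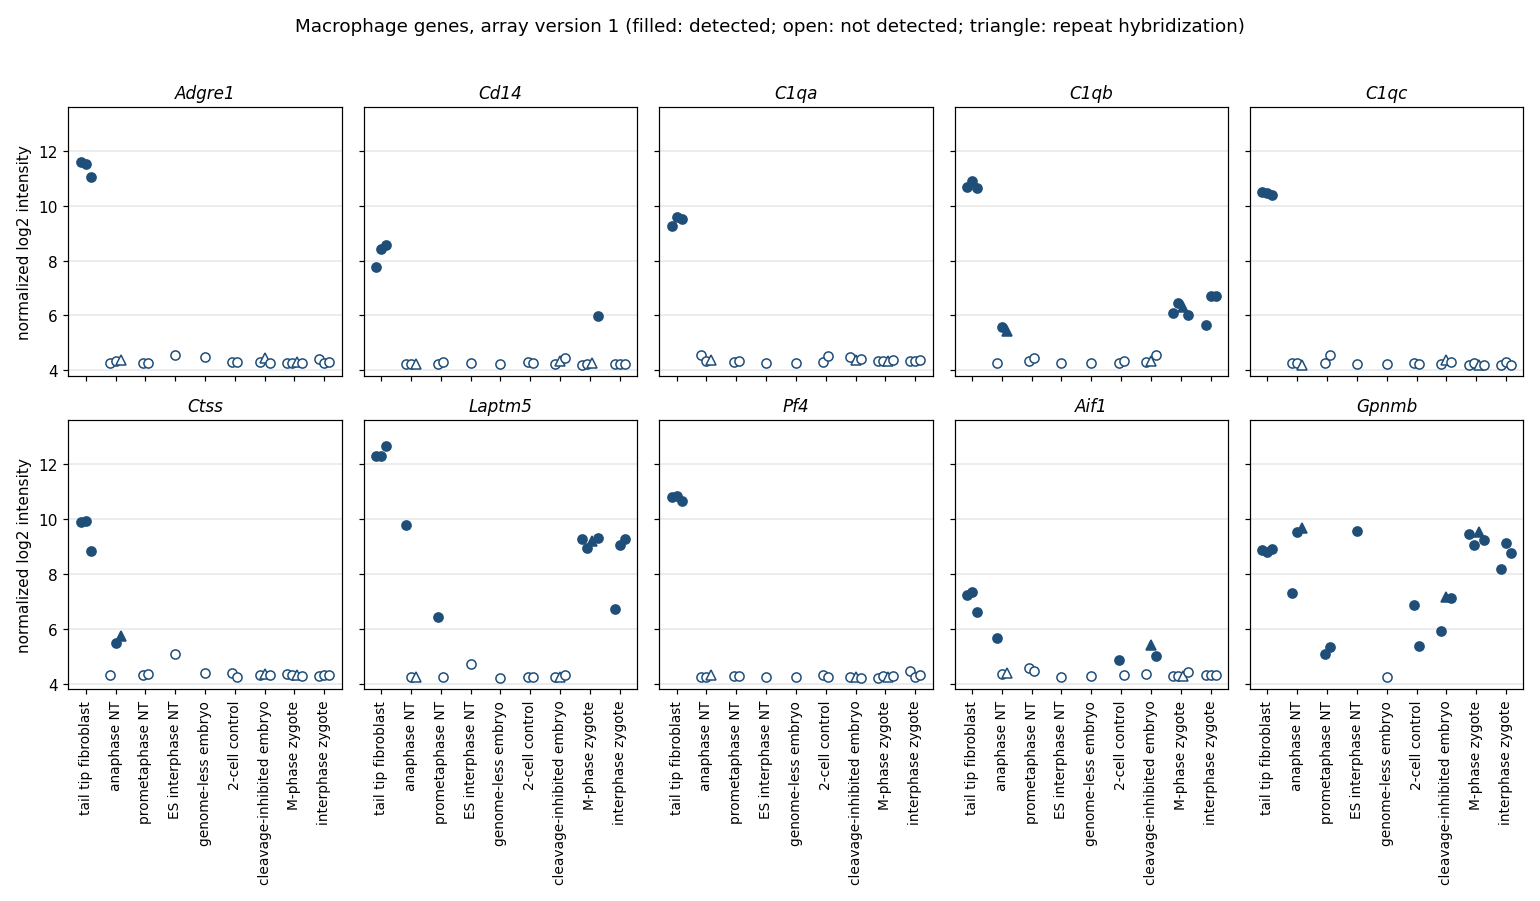
Normalized log2 intensity (vertical axis) of each of the 10 genes on every array of version 1, by group. Each point is 1 array, filled where the gene was detected and open where it was not, and triangles are repeat hybridizations of a sample already shown. All 10 genes are filled in the 3 fibroblast samples, while Gpnmb, Laptm5 and C1qb are also filled in the zygotes.

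Genes of other macrophage and leukocyte lists were also detected in the fibroblast samples. Of all genes tested, 11.9% were at least 2 log2 above the 2-cell controls. The detection filter let in genes detected on the fibroblast arrays alone, which can raise this share and those below. In a list of 35 core macrophage genes that leaves out the 10, 17 were measured (median 1.78 log2). Of these, 8 were at least 2 log2 higher, led by the mannose receptor Mrc1 (6.21 log2), the galectin Lgals3 (3.92 log2) and the inhibitory Fc receptor Fcgr2b (at least 11.6-fold). The pan-leukocyte list of 19 had 7 of 14 measured genes past that size, led by Coro1a (4.31 log2) and Cd53 (at least 13.5-fold). The MHC class II list had only 1 of 6 measured genes past it (median 0.559 log2). The lysosomal list had 4 of 11 (median 1.48 log2) and the complement list 3 of 6 (median 2.3 log2). The chemokine and monocyte signalling list, which is not a list of macrophage markers, had 10 of 15 measured genes past that size, of 24 listed. Among them were Ccl4 (at least 34.5-fold) and Csf1 (5.17 log2), which encodes a growth factor that acts on macrophages. Spi1 was detected in all 3 fibroblast samples, at 5.85, 6.05 and 5.97 log2, and the leukocyte phosphatase Ptprc at 5.80, 5.50 and 4.72 log2.

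Markers of other cells that skin could contribute did not reach that size. None of 2 lymphocyte, 4 granulocyte and mast cell, 5 melanocyte or 6 endothelial genes measured was 2 log2 higher in fibroblasts, although few genes of those lists passed the detection filter. The fibroblast list itself had 15 of 17 genes past 2 log2, with a median of 6.01 log2. Bulk samples cannot tell apart fewer cells of a type and less RNA per cell, and the share of macrophages in the cultures was not measured.

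In anaphase NT embryos set against 2-cell controls, Gpnmb rose and the other 9 genes did not pass the test. Here and below the test is limma's moderated test with Benjamini-Hochberg adjustment over all genes of the array version, two-sided, with genes called at an adjusted p below 0.05. Gpnmb had 7.32 and 9.53 log2 in the anaphase NT samples, against 6.85 and 5.37 log2 in the 2-cell controls, so both NT samples were above both controls. The difference was 2.31 ± 0.64 log2 (SE, n = 2 each, adjusted p = 0.0114). That was 1 gene of 10, where 35.6% of all genes were called in this comparison and 17.1% were called as higher. Nothing is read from that share, because 5 of the 10 genes were detected in neither group, and Adgre1, C1qa, C1qc and Pf4 had passed the detection filter of this version through the fibroblast arrays alone. Cd14 and Ctss also needed the fibroblast arrays to pass, each being detected in only 1 other sample. Without anaphase NT sample 19 the Gpnmb difference was 1.21 log2 (adjusted p = 0.117) and without 2-cell control 23 it was 1.57 log2 (adjusted p = 0.134), so the call rested on both.

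Different members of the group were detected in the 2 anaphase NT samples. Sample 15 was the less sensitive array, with 30.7% of probes detected and a lowest detected signal of 5.13 log2. Sample 19 had 38.5% and 4.66 log2. C1qb and Ctss, detected in sample 19 alone, lay near the lowest detected signal of sample 15. For those 2 genes less RNA and lower sensitivity in sample 15 cannot be told apart. Laptm5 had 9.76 log2 in anaphase NT 15 and was not detected in anaphase NT 19 (4.25 log2), against 4.23 and 4.22 log2, not detected, in the 2-cell controls (at least 5.01-fold for the group mean, adjusted p = 0.112). C1qb was not detected in anaphase NT 15 (4.26 log2) and had 5.59 log2 in anaphase NT 19, against 4.28 and 4.33 log2, not detected, in 2-cell controls (adjusted p = 0.284). Ctss likewise was detected in anaphase NT 19 alone (4.30 and 5.47 log2, against 4.38 and 4.25 log2 in 2-cell controls, adjusted p = 0.258). Aif1 had 5.67 log2 in anaphase NT 15 and was not detected in anaphase NT 19 (4.34 log2, adjusted p = 0.411).

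A repeat hybridization of anaphase NT 19 gave C1qb at 5.43 log2, Ctss at 5.74 log2, Gpnmb at 9.65 log2 and Laptm5 at 4.22 log2, so that the pattern of sample 19 was read again on a second array. Without anaphase NT 19 the difference from 2-cell controls was 5.54 log2 for Laptm5 and 1.08 log2 for Aif1. Without anaphase NT 15 it was 1.29 log2 for C1qb, 1.16 log2 for Ctss and 3.42 log2 for Gpnmb. In those fits the 1 remaining sample is assumed to vary like the other groups, so no call is read from them. Adgre1, Cd14, C1qa, C1qc and Pf4 were detected in no anaphase NT sample and in no 2-cell control.

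The anaphase NT samples lay on slide 2 and the 2-cell controls on slide 3. Within slide 3 the only anaphase NT array is the repeat hybridization of sample 19, whose spread is then taken from the other groups of the slide. There the difference was 3.54 log2 for Gpnmb, 1.42 log2 for Ctss, 1.13 log2 for C1qb, -0.21 log2 for Aif1 and -0.0029 log2 for Laptm5. That array reads the same sample as the fit without anaphase NT 15, so the 2 are not separate evidence. With a single anaphase NT array, nothing is read from a test there. Slide and sample thus change together in this comparison, and the part of the slide was not tested.

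Fibroblast genes were detected in both of the same anaphase NT samples. Of 17 genes of the fibroblast list, 11 rose against 2-cell controls and 0 fell, with a median difference of 1.65 log2. Acta2, smooth muscle actin, had 9.61 and 9.80 log2 in anaphase NT samples, against 4.19 and 4.24 log2 in 2-cell controls (at least 32.5-fold higher, n = 2 each, adjusted p = 1.41e-08). The matrix proteoglycan gene Dcn was at least 27.5-fold higher (adjusted p = 1.75e-08). Both fibroblast genes stood above both controls in each NT sample, and of the 10 macrophage genes Gpnmb alone was detected in both NT samples. The difference between the lists was not itself tested.

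Other leukocyte lists moved in both directions in anaphase NT embryos. Among the core macrophage genes outside the 10, 3 of 17 rose and 1 fell, a share of rises close to the 17.1% of all genes. The pan-leukocyte list had 1 of 14 higher and 2 lower, and the MHC class II list had 0 of 6 called by limma (1 at an unadjusted p below 0.05). Lgals3 rose (9.91 and 10.63 log2 in anaphase NT, against 7.79 and 8.64 log2 in 2-cell controls, 2.05 ± 0.49 log2, adjusted p = 0.00467). Fcgr3, an Fc receptor gene, fell (4.27 and 4.90 log2, against 9.36 and 9.57 log2, -4.88 ± 0.26 log2, adjusted p = 5.24e-08). The monocyte chemokine gene Ccl2 (at least 6.72-fold, adjusted p = 5.87e-06) and the growth factor gene Csf1 (1.35 log2, adjusted p = 0.00357) rose, as did the complement regulator gene Cfp, properdin (2.31 log2, adjusted p = 0.00108), and the cathepsin K gene Ctsk (3.27 log2, adjusted p = 0.00207). In the lysosomal list Ctsk was 1 gene that rose, and 7 of the 11 measured fell.

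In prometaphase NT embryos none of the 10 genes differed from 2-cell controls by limma's moderated test (0 at adjusted p below 0.05 and 0 at unadjusted p below 0.05). In that comparison 2.15% of all genes were called. Gpnmb had 5.09 and 5.34 log2 in the prometaphase NT samples, against 6.85 and 5.37 log2 in 2-cell controls, and both NT samples were just below the lower control (-0.90 ± 0.64 log2, adjusted p = 0.718). Laptm5 had 6.41 log2 in prometaphase NT 27 and was not detected in prometaphase NT 28 (4.22 log2), against 4.23 and 4.22 log2 in 2-cell controls (1.09 ± 1.30 log2, adjusted p = 0.937). Aif1 was detected in 2-cell control 22 alone, and the other 7 genes were detected in neither group. These samples shared slide 3 with the 2-cell controls. Of the fibroblast list, 3 of 17 genes rose in prometaphase NT embryos.

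Anaphase NT and prometaphase NT embryos differed in Gpnmb by 3.21 ± 0.64 log2 (7.32 and 9.53 log2 in anaphase NT, against 5.09 and 5.34 log2 in prometaphase NT, adjusted p = 0.00123). It was the only 1 of the 10 genes called, where 40.5% of all genes were called and 19.4% were called as higher. Laptm5 differed by 1.69 log2 (adjusted p = 0.32), with its single high value in each group. The groups lay on different slides, and the repeat hybridization of anaphase NT 19 on the slide of the prometaphase NT samples had 9.65 log2 of Gpnmb.

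Laptm5, Gpnmb and C1qb were also measured in zygotes that had received no fibroblast nucleus. In M-phase zygotes 24, 25 and 26, Laptm5 had 8.96, 9.27 and 9.30 log2, Gpnmb 9.03, 9.44 and 9.25 log2 and C1qb 6.46, 6.08 and 6.01 log2. Interphase zygotes 1, 30 and 31 had 6.73, 9.07 and 9.28 log2 of Laptm5, 8.19, 9.12 and 8.75 log2 of Gpnmb, and 5.64, 6.73 and 6.72 log2 of C1qb. Interphase zygote 1 was the lowest for each gene. The other 7 genes were detected in no zygote sample, apart from Cd14 in M-phase zygote 26 (5.97 log2).

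From M-phase zygotes to 2-cell controls these 3 genes fell, where 42.3% of all genes were called and 21.9% were called as lower. Laptm5 was at least 22.5-fold lower in 2-cell controls (4.23 and 4.22 log2, not detected, adjusted p = 0.00363) and C1qb at least 2.83-fold lower (4.28 and 4.33 log2, not detected, adjusted p = 0.00135). Gpnmb was lower by -3.13 ± 0.58 log2 (6.85 and 5.37 log2 in 2-cell controls, adjusted p = 0.000569). This comparison was added after the values of zygotes had been seen.

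Gpnmb was the gene of the 10 whose level in embryos reached that in fibroblasts. M-phase zygotes had 9.24 ± 0.21 log2 (SD, n = 3), fibroblasts 8.86 ± 0.06 log2 (n = 3), interphase zygotes 8.68 ± 0.47 log2 (n = 3), anaphase NT embryos 8.43 ± 1.57 log2 (n = 2), cleavage-inhibited embryos 6.53 ± 0.84 log2 (n = 2), 2-cell controls 6.11 ± 1.05 log2 (n = 2) and prometaphase NT embryos 5.21 ± 0.18 log2 (n = 2). The ranges of M-phase zygotes, interphase zygotes and anaphase NT embryos overlapped, as did those of fibroblasts, interphase zygotes and anaphase NT embryos, and those of cleavage-inhibited embryos and 2-cell controls. Donor and recipient both carried Gpnmb, Laptm5 and C1qb, so RNA of these 3 genes from either source cannot be told apart in an NT embryo.

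The genes varied together across the 19 samples of version 1 in unequal degree. The correlation of a gene's log2 level with the mean of the 10, which includes the gene itself, lay between 0.835 (Laptm5) and 0.975 (Pf4) for 9 genes and was 0.464 for Gpnmb. Outside the 10, the genes whose level followed that mean best were Mgst1 (r = 0.986), Tmed3 (r = 0.985), Gabarapl1 (r = 0.981), Gas6 (r = 0.981) and Esm1 (r = 0.981), out of 5760 genes detected in all fibroblast samples. These correlations describe the samples, which share slides and groups, and largely follow the step between fibroblasts and embryos.

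In blastomere NT embryos more of the 10 genes were called than in the other transfers. Set against 4-cell controls, 7 of the 10 genes rose by limma's moderated test, where 2.81% of all 7181 genes of version 2 were called and 2.07% were called as higher. All 10 genes were higher in every blastomere NT sample than in every 4-cell control, where 25.3% of all genes were. For Aif1 this rests on values mostly below the lowest detected signal. The median difference was 3.01 log2, or 2.26 log2 with the genes undetected in 4-cell controls at their lower bound, against -0.026 log2 for all genes. Pf4, Cd14, Adgre1 and C1qc passed the detection filter of this version through the blastomere NT arrays, so of the 7 genes that rose Pf4, Adgre1 and C1qc were tested only because they were high in that group. The count of all genes called rested on few samples, at 24 and 21 without 4-cell control 1 or 2 and 56 without blastomere NT 2, against 202 with all. Since the genes were picked with earlier results of these arrays known, the count describes these 10 and is no test of macrophage genes in general.

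Pf4 had 10.53, 10.37 and 10.56 log2 on blastomere NT arrays 1, 2 and 3, against 4.93 and 4.75 log2, not detected, in 4-cell controls. The samples of each group lay close together and far from the other group (at least 21.3-fold higher, adjusted p = 3.91e-05). Pf4 entered the test only because these arrays detected it, so that p adds no support to the rise. Laptm5 had 12.13, 13.85 and 11.96 log2 in blastomere NT, against 7.16 and 5.95 log2 in 4-cell controls, with control 1 alone detected (6.39 ± 0.63 log2, SE, n = 2 each, adjusted p = 0.000674). Gpnmb had 12.20, 13.80 and 12.22 log2 in blastomere NT, against 5.15 and 5.76 log2, not detected, in 4-cell controls (at least 125-fold higher, adjusted p = 0.00387). For Laptm5 and Gpnmb the second blastomere NT sample was the highest. The 4-cell controls had the lowest Gpnmb mean of the groups on version 2 (5.45 log2). The 2-cell controls of that version, which were not compared, had a mean of 8.01 log2 and detected it on both arrays.

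The surface receptor Adgre1 had 7.86, 8.04 and 7.81 log2 in blastomere NT, against 5.03 and 5.07 log2, not detected, in 4-cell controls (at least 3.72-fold higher, adjusted p = 0.00233). Of the C1q chains 2 also rose. C1qc had 7.79, 8.56 and 7.97 log2, against 4.95 and 5.22 log2 in 4-cell controls (at least 4.52-fold higher, adjusted p = 0.00233), and C1qb had 8.10, 9.35 and 8.36 log2, against 4.78 and 4.76 log2 (at least 6.71-fold higher, adjusted p = 0.00398). Both were undetected in the controls. Adgre1 and C1qc entered the test only because they were high in blastomere NT, so their adjusted p-values add no support to the rise.

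Ctss had 7.77, 9.05 and 7.73 log2 in blastomere NT, against 5.80 and 5.71 log2, not detected, in 4-cell controls (at least 5.11-fold higher, adjusted p = 0.0394). Its call was lost without blastomere NT 2 (adjusted p = 0.349) and without either 4-cell control (adjusted p = 0.252 and 0.262). C1qa missed the threshold with 6.90, 7.43 and 6.74 log2 in blastomere NT, against 5.65 and 5.31 log2 in 4-cell controls (at least 2.12-fold, adjusted p = 0.0596), and passed with slide as a random block (adjusted p = 0.0482). Cd14 had 5.98, 6.41 and 5.66 log2, against 5.02 and 5.06 log2 (adjusted p = 0.0812), and Aif1 had 5.52, 5.67 and 6.03 log2, against 5.20 and 5.11 log2 (adjusted p = 0.582). Cd14 was detected on 2 and Aif1 on 1 of the 3 blastomere NT arrays, and neither in a 4-cell control.

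**Figure D2:**
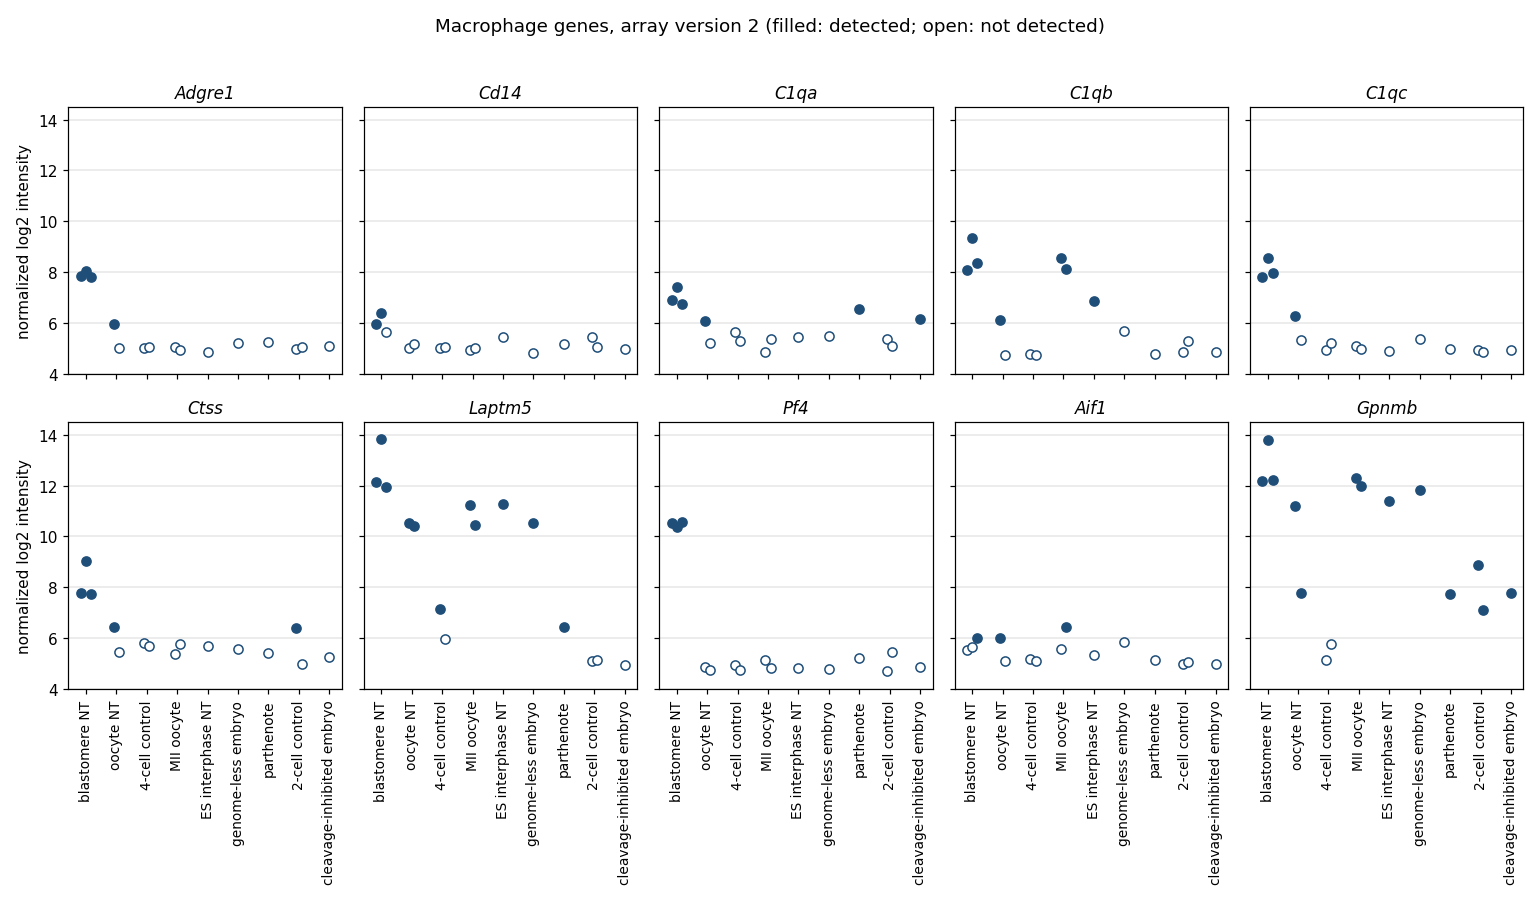
Normalized log2 intensity (vertical axis) of each of the 10 genes on every array of version 2, by group, with 1 point per array, filled where detected. Pf4, Adgre1, C1qc and Ctss stand highest in the 3 blastomere NT arrays, while Laptm5 and Gpnmb are also high in MII oocytes and oocyte NT embryos.

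All 3 blastomere NT arrays lay on slide 7, as did 4-cell control 2, while 4-cell control 1 lay on slide 6. Within slide 7 the mean of each of the 10 genes was still higher in blastomere NT, and none was detected in 4-cell control 2. The rise was at least 118-fold for Laptm5, at least 123-fold for Gpnmb and at least 21-fold for Pf4, but at least 1.04-fold for Cd14. For Aif1 no rise is shown, since its blastomere NT mean (5.72 log2) was below the lowest detected signal of that control (6.06 log2). With a single control on that slide, nothing is read from a test there. With arrays 1 and 3 counted separately 8 genes passed limma's test, C1qa being added (adjusted p = 0.0337), where 289 of all 7181 genes were called. Without 4-cell control 1 a single control was left, and no call is read from that fit.

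Other leukocyte genes of version 2 moved in part with the 10. In the core macrophage list 2 of 10 measured genes rose in blastomere NT embryos, Lgals3 (11.74, 13.43 and 11.81 log2, against 9.20 and 8.95 log2 in 4-cell controls, adjusted p = 0.0101) and the lysozyme gene Lyz2 (8.12, 8.85 and 8.12 log2, against 5.43 and 5.94 log2, at least 5.43-fold higher, adjusted p = 0.00715). Without blastomere NT 2 neither was called. The chemokine genes Ccl4 (at least 2.73-fold, adjusted p = 0.0176) and Ccl9 (at least 1.28-fold, adjusted p = 0.0265) rose, 0 of 8 pan-leukocyte genes were called by limma (2 at an unadjusted p below 0.05), and the B-lymphocyte gene Cd79b rose (10.20, 10.25 and 9.98 log2, against 7.07 and 7.18 log2, adjusted p = 0.00406). Mrc1 differed by 2.28 log2 (adjusted p = 0.113). These genes were named after their values were seen, and the calls depended on the setting. With the compared groups alone Ccl4 and Ccl9 did not pass limma's test (adjusted p = 0.057 and 0.0584). With matrix values Lyz2, Ccl9 and Cd79b did not (adjusted p = 0.192, 0.0519 and 0.0627). Without blastomere NT 2 the difference of Ccl4 was 1.94 log2, against 2.70 log2 with all samples. Spi1 and Ptprc did not pass the detection filter on version 2.

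Fibroblast markers differed between the same blastomere NT arrays. Of 9 fibroblast list genes measured, 0 rose by limma's test (3 were higher at an unadjusted p below 0.05) and 1, Pdgfra, fell (6.07, 4.90 and 6.24 log2, against 8.83 and 8.46 log2 in 4-cell controls, -3.12 ± 0.51 log2, adjusted p = 0.0101). Dcn had 5.68, 9.45 and 6.12 log2, against 5.16 and 5.01 log2 (adjusted p = 0.166), and Serpinf1 had 6.27, 9.64 and 6.74 log2, against 5.03 and 5.06 log2 (adjusted p = 0.0617, and 0.043 with slide as a random block). Thy1 had 6.07, 8.54 and 6.11 log2, against 5.08 and 5.16 log2 (adjusted p = 0.0977), so blastomere NT 2 was high in each of these genes. In an alternative added later, blastomere NT 2 alone was set against the controls. There Dcn differed by 4.36 log2, Serpinf1 by 4.60 log2, Thy1 by 3.42 log2 and Acta2 by 0.30 log2. The macrophage genes differed by 0.51 log2 (Aif1) to 8.35 log2 (Gpnmb). With 1 NT sample in that fit, no call is read from it. Of the macrophage genes 8 were likewise highest on array 2, and Pf4 and Aif1 were highest on array 3. The difference between macrophage and fibroblast genes was not itself tested.

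**Figure D3:**
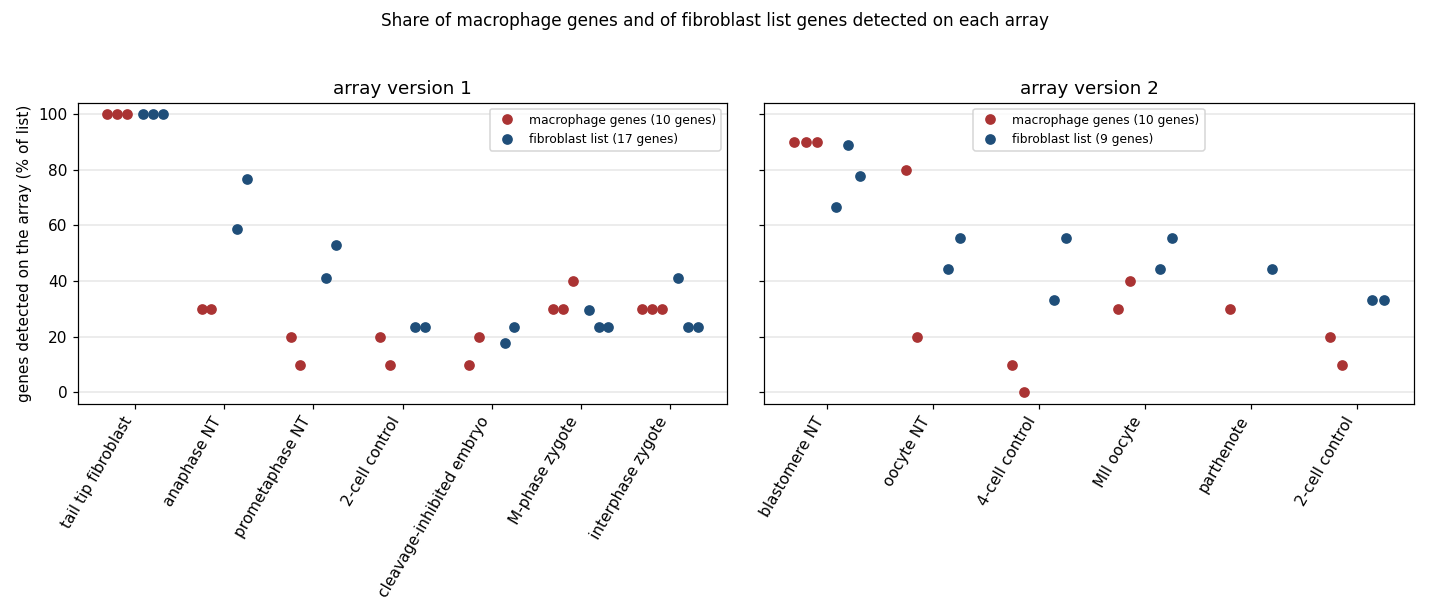
Share of the 10 macrophage genes and of the measured fibroblast list genes (vertical axis, percent) detected on each array, by group, for version 1 (left) and version 2 (right), with 1 point per array. On the fibroblast arrays all 10 macrophage genes were detected, on anaphase NT arrays 3 of 10, and on blastomere NT arrays 9 of 10.

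Promoters are printed for 3 of the genes that rose in blastomere NT embryos, because their windows share a motif of the macrophage factor PU.1. Windows of 300 bases, from 250 before to 50 after the start of the gene, were taken from RefSeq on build GRCm38.p6, where 7 of the 10 genes had one. The letters GAGGAA, the core of PU.1 sites, or TTCCTC on the other strand, stood in 6 of these 7 windows, Gpnmb being without them, and in 28.3% of 32851 windows of all genes. The longer GAGGAAGT or ACTTCCTC, which contains the shorter motif and was chosen after the sequences had been read, stood in 3 of the 7 and in 3.2% of all windows. It is in capitals, each sequence is given 5′ to 3′ on the strand of the gene, and a match is a description of letters and not of binding.
Pf4: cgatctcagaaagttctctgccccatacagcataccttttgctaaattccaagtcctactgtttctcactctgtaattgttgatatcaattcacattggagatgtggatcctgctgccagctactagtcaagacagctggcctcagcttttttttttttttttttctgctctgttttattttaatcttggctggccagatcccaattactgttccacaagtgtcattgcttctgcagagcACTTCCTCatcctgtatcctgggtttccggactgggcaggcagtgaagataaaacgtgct
C1qc: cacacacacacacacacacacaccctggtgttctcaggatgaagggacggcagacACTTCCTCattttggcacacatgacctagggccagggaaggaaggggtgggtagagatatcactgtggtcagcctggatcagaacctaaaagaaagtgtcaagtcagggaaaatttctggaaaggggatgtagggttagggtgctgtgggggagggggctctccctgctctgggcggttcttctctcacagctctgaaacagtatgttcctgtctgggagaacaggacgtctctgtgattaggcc
Ctss: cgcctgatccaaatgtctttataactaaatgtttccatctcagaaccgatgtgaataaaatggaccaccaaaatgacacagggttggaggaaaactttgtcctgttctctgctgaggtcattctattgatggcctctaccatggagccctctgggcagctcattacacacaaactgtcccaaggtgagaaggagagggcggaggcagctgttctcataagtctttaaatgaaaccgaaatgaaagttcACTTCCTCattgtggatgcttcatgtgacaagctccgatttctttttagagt
The Pf4 window lies at chr5:90772185-90772484 on the plus strand, with the first base of the motif at position -10 from the start. That of C1qc lies at chr4:136892865-136893164 on the minus strand, with the motif at -195, and that of Ctss at chr3:95526536-95526835 on the plus strand, with the motif at -2.

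In oocyte NT embryos none of the 10 genes was called as higher than in the recipient stage. On simulated data 27% of genes moved by 2 log2 were recovered, but far fewer genes were moved there than were called here. That share is therefore no measure of what this comparison could find. Set against MII oocytes, C1qb and Gpnmb fell and the other 8 did not pass, where 52.4% of all genes were called and 26.4% were called as lower. C1qb had 6.11 and 4.73 log2 in oocyte NT embryos, against 8.57 and 8.11 log2 in MII oocytes (-2.92 ± 0.53 log2, SE, n = 2 each, adjusted p = 0.000863). Gpnmb had 11.20 and 7.77 log2, against 12.29 and 12.00 log2 (-2.66 ± 0.98 log2, adjusted p = 0.0398), and the difference ranged from -4.37 to -0.95 log2 when single samples were left out. That call was lost without oocyte NT 2 (adjusted p = 0.389), without MII oocyte 1 or 2 (adjusted p = 0.141 and 0.104), with the compared groups alone (adjusted p = 0.0577), without the detection filter (adjusted p = 0.0656) and with matrix values (adjusted p = 0.2). Laptm5 had 10.52 and 10.41 log2, against 11.23 and 10.45 log2 (-0.38 ± 0.63 log2, adjusted p = 0.644), with overlapping groups. All 4 samples lay on slide 6.

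The 2 oocyte NT samples again differed. Oocyte NT 1 had 8 of the 10 genes detected and oocyte NT 2 had Gpnmb and Laptm5 alone. In oocyte NT 1 Adgre1 had 5.97 log2, C1qa 6.09 log2, C1qc 6.26 log2, Ctss 6.44 log2 and Aif1 6.0 log2, each close to the lowest detected signal. Pf4 was detected in neither oocyte NT sample (4.86 and 4.76 log2), nor in MII oocytes (5.14 and 4.82 log2).

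Against 4-cell controls, a comparison added later, Gpnmb was at least 10.9-fold higher in oocyte NT embryos (adjusted p = 0.027) and Laptm5 higher by 3.90 ± 0.63 log2 (adjusted p = 0.00611), where 11% of all genes were called and 6.77% were called as higher. Without oocyte NT 1 neither passed (adjusted p = 0.213 and 0.0671). This comparison shares its 4-cell controls with that of blastomere NT embryos, in which 7 genes rose.

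**Figure D4:**
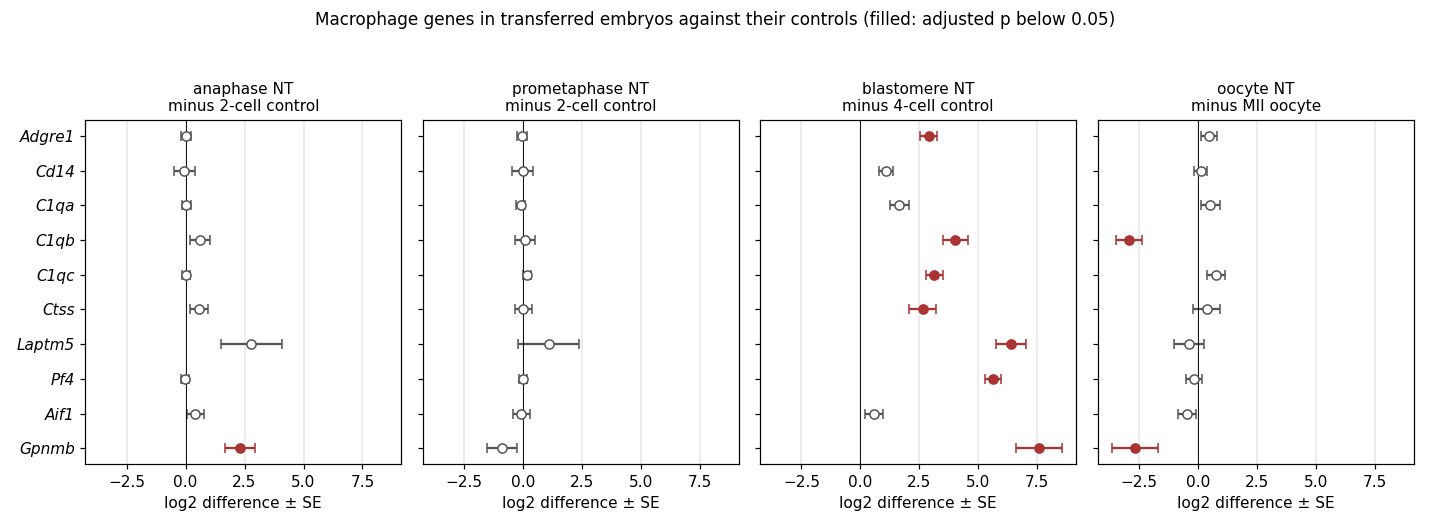
Log2 difference ± SE (horizontal axis) of each of the 10 genes (vertical axis) in NT embryos against their controls, with filled points for genes at an adjusted p below 0.05. In blastomere NT embryos 7 points are filled, all to the right of 0, against 1 in anaphase NT, 0 in prometaphase NT and 2, to the left of 0, in oocyte NT embryos.

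Probes of the same gene differed in places. The probe with the brightest mean was used for each gene. A second probe of Adgre1 was detected on 3 arrays of version 1, those of fibroblasts, and on 0 of version 2. Its fibroblast mean was 4.53 log2, close to the lowest detected signal, against 4.25 log2 in 2-cell controls. That difference was 0.28 log2, against 7.09 log2 for the probe used. A second probe of Aif1 had 5.79 to 6.42 log2 in fibroblasts on version 1 and was undetected in 2-cell controls. The other probes of Gpnmb were detected on at most 1 array of each version. Aif1 was read by different probes on the 2 versions.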

How the data were processed

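Average bead intensities of every probe, not normalized between arrays, and their detection p-values were deposited by the authors, and GenomeStudio (version not given) made them, per the submitters' processing notes. The deposited series matrix held linear intensities of 16075 probes, with values below 0, and its making is not stated. Its columns, with medians of 3.08 to 19.5 and 4.39 to 12.0, were linear in the unnormalized signal (r = 1, and 0.996 for a cleavage-inhibited repeat), on a scale of unstated origin, and they served only as an alternative. Per the labels' protocols, a PicoPure kit gave the RNA and an Illumina TotalPrep kit the biotin label.

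Each version (22 and 15 arrays on 5 and 3 slides) was normalized on its own in R 4.3.3 with neqc of limma 3.58.1: normexp with an offset of 16, quantile normalization, log2. Negative controls were inferred from the detection p-values. Of the probes, 14898 and 15052 had 1 symbol in the platform annotation, 9715 and 10645 had none and 0 had several. A probe was kept if at least 2 arrays detected it (p below 0.05), and the brightest probe stood for a gene (8158 and 7181 genes). The 75th percentile of the unnormalized signal was 23.5 to 152 and 203 to 537, and the number of arrays limits the precision.

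A group-means model with eBayes (trend) was fitted per version with no covariate (19 and 14 samples, leaving 10 and 5 residual degrees of freedom), and p-values were adjusted by Benjamini-Hochberg per comparison. Repeat hybridizations were left out of version 1, and blastomere NT arrays 1 and 3 were averaged. For 4-cell control 2 the slide in the description was followed, since its title gives another. The genes and the marker lists were chosen with earlier results of these data known. Named genes were the 10, up to 3 of each list with the largest difference in anaphase NT or fibroblasts, the 5 genes most like the mean of the 10, and fixed cell type checks; other names are marked as chosen later. On simulated data the model recovered 71% of genes moved by 2 log2 and 28% of those moved by 1 log2 in anaphase NT against 2-cell controls (8158 genes), with 3.88% of calls false. For blastomere NT against 4-cell controls (7181 genes) it recovered 37% and 1%, with 7.32% of calls false. For oocyte NT it recovered 27% and 2% against MII oocytes, and 19% and 0% against 4-cell controls. Far fewer genes were moved in the simulations than were called in the real anaphase NT and oocyte NT comparisons. The simulated shares therefore do not carry over to those. Alternatives were scaling to the 75th percentile, no background correction, an offset of 50, matrix values, no detection filter, all probes on their own, the compared groups alone, slide as a block and within slides, and leaving out each sample.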

Additional observations from a re-analysis of the deposited data

Results flagged for a closer look

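Gpnmb differed between the 2 kinds of zygote transfer under the same control. Its level in anaphase NT embryos was 3.21 log2 above that in prometaphase NT embryos, a difference tested directly (adjusted p = 0.00123 by limma), with anaphase NT at 7.32 and 9.53 log2 and prometaphase NT at 5.09 and 5.34 log2. The groups lay on different slides.

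Several arrays of groups with a single sample, which enter no comparison above, stood above every 2-cell, cleavage-inhibited and 4-cell array of their version. In interphase NT embryos made with embryonic stem (ES) cells, Gpnmb was at 9.55 log2 on version 1, where the highest of those controls had 7.14 log2, and at 11.4 log2 on version 2, where the highest had 8.88 log2. The version 2 array of ES NT also had Laptm5 at 11.26 log2, against at most 7.16 log2 in controls, and C1qb at 6.86 log2, against at most 5.29 log2. The recipient stages held such levels too: M-phase zygotes had Gpnmb at 9.03 to 9.44 log2 on version 1, and MII oocytes had Gpnmb at 12.0 and 12.29 log2, Laptm5 at 10.45 and 11.23 log2 and C1qb at 8.11 and 8.57 log2 on version 2. On version 1 the ES NT array had neither Laptm5 nor C1qb detected.

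The embryo kept for 1 d without a genome had Gpnmb at 11.85 log2 and Laptm5 at 10.55 log2 on version 2, against at most 8.88 and 7.16 log2 in controls. The genome-less embryo of version 1 had none of the 10 genes detected. The parthenote had C1qa at 6.56 log2, against at most 6.18 log2 in controls. These arrays have no replicate on their version, and no test was made.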

How the results depend on the processing

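Over the alternatives run, the tested differences of the 10 genes that were detected in either group kept direction and side of the threshold 554 times, lost a call 35 times, gained one 19 times and changed sign 28 times. The count called in anaphase NT against 2-cell controls was 1 as reported and 0 with the compared groups alone. Against prometaphase NT it was 0 with the groups alone. In blastomere NT against 4-cell controls 4 were called with matrix values. Fits within slides 3 and 7 had 1 sample in a group, so their counts are not given. In oocyte NT against MII oocytes 5 were called after 75th percentile scaling, 1 without the filter, 1 with the groups alone and 1, as higher, with matrix values; in oocyte NT against 4-cell controls 1 was called without background correction. The fibroblast median was 5.04 log2 after 75th percentile scaling, 4.70 without background correction, 4.30 with an offset of 50 and 11.06 with matrix values.

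Leaving out each sample gave counts of 0 to 3 (anaphase NT), 1 to 3 (anaphase against prometaphase NT), 4 to 9 (blastomere NT), 0 to 2 (oocyte NT against 4-cell), 1 to 2 (oocyte NT against MII), 0 (prometaphase NT) and 3 (2-cell against M-phase), and a fibroblast median of 5.62 to 5.90 log2.

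None of the reversed differences had passed as reported. With 75th percentile scaling the median of all genes in oocyte NT against MII oocytes moved from -0.0568 to -0.75 log2. Reversed differences with that scaling were Adgre1 -0.44, C1qa -0.35, C1qc -0.070 and Ctss -0.33 log2 there and Cd14 0.056 log2 in 2-cell against M-phase. With matrix values they were Laptm5 0.092 log2 in oocyte NT against MII, Aif1 1.31 log2 in prometaphase NT and Acta2 0.17 log2 in blastomere NT. Within slide 3 they were Aif1 -0.21 and Laptm5 -0.0029 log2 in anaphase NT. The causes were not tested.

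Leaving out samples moved anaphase NT against 2-cell differences over -0.24 to 1.08 (Aif1), -0.036 to 1.29 (C1qb) and -0.022 to 1.16 log2 (Ctss), and anaphase against prometaphase NT over -0.17 to 1.16 (Aif1), -0.12 to 1.20 (C1qb), -0.034 to 1.14 (Ctss) and -1.06 to 4.45 log2 (Laptm5). Prometaphase NT moved over -0.34 to 0.19 (Aif1) and -0.0013 to 2.18 log2 (Laptm5), Cd14 in 2-cell against M-phase over -0.82 to 0.056 and Acta2 in blastomere NT over -0.37 to 0.30 log2 (0.060 without 4-cell control 2). Oocyte NT against 4-cell moved over -0.043 to 0.93 (Adgre1), -0.072 to 0.85 (Aif1), -0.28 to 0.61 (C1qa), -0.041 to 1.34 (C1qb) and -0.31 to 0.68 log2 (Ctss), and against MII over -0.0061 to 0.96 (Adgre1), -0.12 to 0.87 (Ctss) and -0.77 to 0.0061 log2 (Laptm5).

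Over all genes the calls were 353 with the groups alone, against 2901, in anaphase NT, 852, against 3303, in anaphase against prometaphase NT, and 49 after 75th percentile scaling and 1 with the groups alone, against 175, in prometaphase NT. They were 69 with matrix values, 130 without the filter and 130 with the groups alone, against 202, in blastomere NT, and 450, 495 and 1474, against 793, in oocyte NT against 4-cell. Leaving out single samples moved them over 21 to 209 in blastomere NT (408 with blastomere NT 2 alone), 81 to 740 in oocyte NT against 4-cell and 108 to 190 in prometaphase NT. No paired analysis was possible because the groups compared share no replicate numbers in the labels. Genes near the lowest detected signal, Aif1 and Cd14 above all, are limited by it, and 2 samples a group limit all differences.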
